A study of Mus musculus with 12 samples.

Results

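The genes described here are 10 genes of excitation-contraction coupling and calcium handling in skeletal muscle, namely Cacna1s, Cacnb1, Cacng1, Ryr1, Trdn, Jph1, Jph2, Casq1, Atp2a1 and Pvalb. They were chosen by name, with earlier results of these data known, from the 37748 genes of the counts table. Each of the 10 names occurs once in it. All 10 were counted in all mice and passed the filter on low counts that left 16679 genes to test.

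The data are RNA-seq libraries of gastrocnemius, a calf muscle, from 12 mice, with 3 mice in each of 4 groups and 1 library per mouse. Control mice were of the ACTA1-MCM/+ genotype, which carries a Cre recombinase that is active after tamoxifen (TMX) and is driven by a skeletal muscle actin promoter. FLExD/+ mice were of the FLExDUX4/+ genotype, which carries a conditional transgene for human DUX4-fl, the transcription factor misexpressed in facioscapulohumeral muscular dystrophy (FSHD), and lacks the recombinase. The labels list the mice of both these groups as without TMX. The moderate and severe models were bi-transgenic mice (FLExDUX4/+;MCM/+), given 1 injection of 5 mg/kg TMX for the moderate model and 2 injections of 10 mg/kg TMX for the severe model. By the study's methods the mice were 13 weeks old and the muscles of the models were taken 9 days after TMX. The labels describe the pathology of the FLExD/+ mice as mild, whereas their genotype is that of mice in which the transgene is not recombined. The bi-transgenic mild model without TMX was not analysed here. Recombination in the models is mosaic, so that each muscle mixes fibres with and without DUX4-fl. Since neither single-transgenic group received TMX by its labels, the effects of TMX and of DUX4-fl cannot be told apart from these groups.

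In a muscle fibre, an action potential enters the transverse tubules and moves the voltage sensor, an L-type calcium channel, which opens the ryanodine receptor in the membrane of the sarcoplasmic reticulum (SR). The tubule and the SR meet at the triad, where junctophilins hold the membranes together and triadin ties the release channel to calsequestrin, the calcium buffer inside the SR. A calcium pump returns calcium to the SR after each contraction, and in fast fibres parvalbumin binds calcium in the cytosol and speeds relaxation.

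Total expected counts ranged from 23796902 to 29136403 per mouse. Levels are given as CPM, which edgeR computes from the counts and a library size adjusted by its TMM factors, which were 0.706 to 0.760 in the single-transgenic mice, 1.06 to 1.13 in moderate mice and 1.69 to 1.87 in severe mice. At these depths 3 counts corresponded to 0.0676 to 0.155 CPM, far below the levels of the 10 genes, and this floor covers counting error only. Wfdc3, a gene induced by DUX4 in mouse muscle, was at 62.6 to 116 CPM in the 6 mice of the models and at 0.386 CPM or less in the 6 single-transgenic mice. Reads of Esr1, whose sequence is part of the inducible recombinase, were at 422 to 819 CPM in the controls, at 27.5 to 37.9 CPM in FLExD/+ mice, at 95.9 to 124 CPM in the moderate model and at 35.2 to 37.4 CPM in the severe model, although the severe model carries the recombinase. Acta1, the skeletal muscle actin gene of the mouse, had means of 20536 CPM in controls, 6339 CPM in moderate mice and 1842 CPM in severe mice. The part of the actin promoter in the Esr1 levels was not tested. The libraries also differed in the share of counts from 20 adult fibre genes of the sarcomere and of energy metabolism, which was 19.4% to 28.7% in the single-transgenic mice, 14.9% to 16.9% in moderate mice and 6.08% to 8.73% in severe mice. Mitochondrially encoded genes took 25.3% to 36.6%, 26.6% to 29.1% and 19.2% to 20.5% of the counts in the same order. The mice carry individual numbers and no number is shared between groups, so no pairs were formed.

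RefSeq start-site windows on GRCm38.p6 were found for 7 of the 10 genes, and not for Trdn, Jph1 and Cacng1. The 250 bases before each start were searched on both strands for the E-box CAGCTG, bound by myogenic factors such as MyoD, for the MEF2 motif and for the CArG box of serum response factor. The E-box was found before 4 of the 7 genes, in 5 of their 10 windows, and in 13% of all 32851 windows. The MEF2 motif was found before 1 of the 7, in 1 of the 10 windows, and in 2.92% of all windows. The CArG box was found before 0 of the 7, in 0 of the 10 windows, and in 1.47% of all windows. The windows of Jph2 overlap and share the same E-box. The windows of the genes that held a motif are printed 5′ to 3′ on the strand of the gene, up to the first annotated exon base, with the motif in capitals, so that the sequence before genes called lower in both models can be read. A match of letters is a description of the sequence and not a bound site.
Cacna1s, E-box, chr1:136052561-136052749, plus strand: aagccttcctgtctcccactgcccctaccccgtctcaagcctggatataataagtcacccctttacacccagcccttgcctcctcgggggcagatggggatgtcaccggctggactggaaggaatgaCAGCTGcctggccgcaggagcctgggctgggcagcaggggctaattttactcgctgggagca
Atp2a1, E-box, chr7:126463109-126463323, minus strand: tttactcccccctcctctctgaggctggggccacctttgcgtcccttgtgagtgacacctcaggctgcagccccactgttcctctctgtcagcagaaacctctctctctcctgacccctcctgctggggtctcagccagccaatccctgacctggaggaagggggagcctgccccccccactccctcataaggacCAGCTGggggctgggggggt
Casq1, E-box, chr1:172219896-172220145, minus strand: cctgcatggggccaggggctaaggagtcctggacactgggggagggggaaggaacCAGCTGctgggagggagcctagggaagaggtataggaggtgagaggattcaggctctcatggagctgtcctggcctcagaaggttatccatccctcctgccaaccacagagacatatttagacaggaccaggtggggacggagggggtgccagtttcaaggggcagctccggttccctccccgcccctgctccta
Jph2, E-box, chr2:163397994-163398243, minus strand: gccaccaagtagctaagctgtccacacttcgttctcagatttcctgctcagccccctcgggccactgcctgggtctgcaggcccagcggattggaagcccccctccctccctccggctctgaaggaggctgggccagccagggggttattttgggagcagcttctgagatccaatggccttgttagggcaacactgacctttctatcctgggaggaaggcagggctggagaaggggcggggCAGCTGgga
Pvalb, MEF2 motif, chr15:78206401-78206650, minus strand: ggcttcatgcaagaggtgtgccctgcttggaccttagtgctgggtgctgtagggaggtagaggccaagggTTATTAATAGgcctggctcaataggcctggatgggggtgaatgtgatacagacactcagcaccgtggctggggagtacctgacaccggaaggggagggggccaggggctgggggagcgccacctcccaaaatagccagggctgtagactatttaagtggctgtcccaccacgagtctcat

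Log2 fold changes of the 10 genes on the TMM scale were below 0 for both models against controls and for severe against moderate mice. Cacng1 in the moderate model overlapped with controls, and its log2 fold change there was above 0 with library size alone. With libraries scaled to adult fibre genes, the log2 fold changes of 3, 5 and 7 of the 10 genes in these comparisons were above 0. Calls required an adjusted p (Benjamini-Hochberg, over all tested genes) under 0.05 together with a log2 fold change of at least 0.5 in size. In the moderate model 9 of the 10 genes were called lower and 0 higher, where 17.0% of all tested genes were called lower and 24.4% higher. In the severe model 10 of 10 were called lower than in controls, where 27.9% of all tested genes were called lower and 32.9% higher. Between the severe and the moderate model 10 of 10 were again called lower, where 18.8% of all tested genes were called lower and 17.6% higher. The median log2 fold change of the 10 genes was -1.42 in moderate mice and -3.14 in severe mice against controls, and -1.52 between the models, beside medians over all tested genes of 0.04, 0.08 and 0.02. These counts did not change when any 1 of the 12 mice was left out. The genes were chosen with earlier results of these data known, so the counts describe them and are not an independent test. The comparisons with control mice share those mice, and the comparison between the models shares mice with both.

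Between FLExD/+ and control mice 0 of the 10 genes were called by edgeR, DESeq2 or limma, and 1, Ryr1, had an unadjusted edgeR p under 0.05. Over all tested genes 0.00600% were called lower and 0% higher in this comparison, and 638 of 16679 had an unadjusted edgeR p under 0.05. The log2 fold changes of the 10 genes lay between -0.38 and -0.01, with a median of -0.14, and values of the 2 groups overlapped at each of the 10 genes. For Ryr1 the log2 fold change was -0.38 with a 95% interval from -0.73 to -0.02 and an adjusted p of 1.

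**Figure D1:**
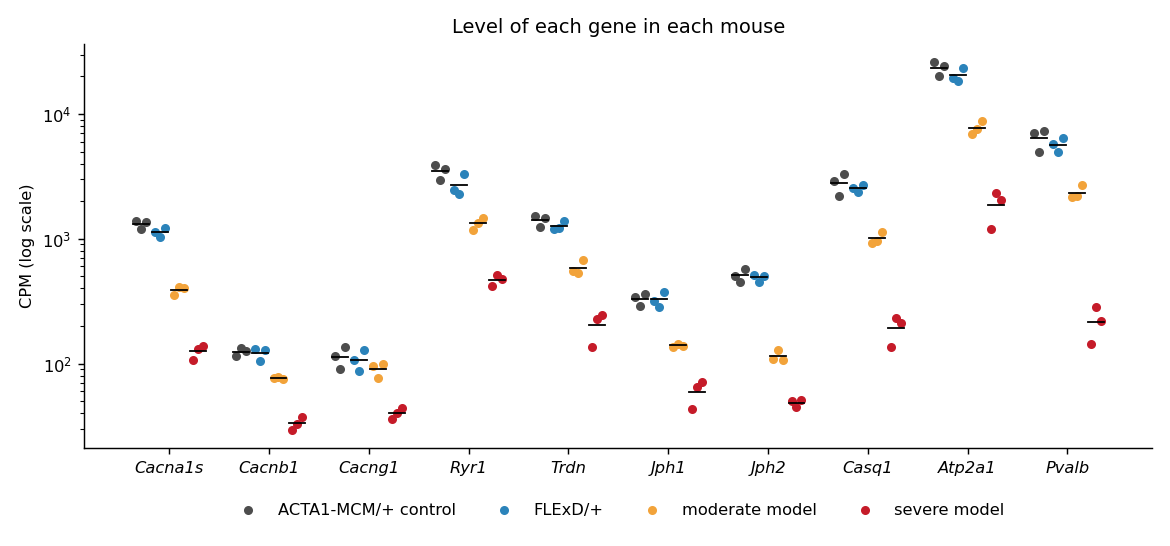
Level of each of the 10 genes in each mouse in CPM on a log axis, ordered from the voltage sensor to the cytosolic buffer. Points are mice, 3 per group, and black bars are group means. The severe mice sit below the moderate mice at every gene, and the moderate mice below the single-transgenic mice at every gene except Cacng1, where they overlap. The levels are on the TMM scale.

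The groups can also be compared without a test, by the CPM values of single mice, which carry the TMM scaling. No moderate mouse reached the level of any control mouse at 9 of the 10 genes, where 28.5% of all tested genes were lower without overlap. In the severe model this held for 10 of the 10 genes against controls, with 34.9% of all tested genes, and for 10 of the 10 against the moderate model, with 30.8%. Between FLExD/+ and control mice it held for 0 of the 10, with 4.59% of all tested genes. These counts depend on the scaling, and not all of the separations held in TPM. Cacnb1 was at 50.2 to 56.2 TPM in moderate mice and 55 to 64.5 TPM in controls. Cacng1 was at 83.4 to 95.2 TPM in severe mice and 87.1 to 136 TPM in controls. The bulk libraries do not separate a loss of fibres from less of a transcript in each fibre.

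Of the voltage sensor subunits, Cacna1s lost the largest part of its transcript. Cacna1s (ENSMUSG00000026407, chromosome 1, 136052750 to 136119822 on GRCm38) encodes the pore-forming subunit that senses the voltage of the tubule. It was at 1376, 1201 and 1352 CPM in the 3 control mice, at 1135, 1030 and 1224 CPM in FLExD/+ mice, at 357, 409 and 407 CPM in moderate mice and at 107, 130 and 139 CPM in severe mice. The models were separated from each other and from the single-transgenic mice by more than the spread within any group. The mean in the moderate model was 29.9% and in the severe model 9.59% of that in controls, with log2 fold changes of -1.74 (SE 0.13, adjusted p = 1.1e-07) and -3.38 (SE 0.14, adjusted p = 1.3e-10).

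The auxiliary subunits kept more of their transcript. Cacnb1 (ENSMUSG00000020882, chromosome 11, 98001508 to 98023034) encodes the intracellular beta subunit that brings the channel to the triad. It was at 114, 132 and 126 CPM in controls, 130, 104 and 129 CPM in FLExD/+ mice, 76.1, 78.3 and 75.5 CPM in moderate mice and 29.3, 32.5 and 37.4 CPM in severe mice. The moderate mice lay close together, below every single-transgenic mouse. The fitted log2 fold change was -0.70 (SE 0.11, adjusted p = 9.0e-05) in moderate mice and -1.91 (SE 0.11, adjusted p = 2.5e-09) in severe mice. The call in the moderate model depended on the scaling, since with library size alone the log2 fold change was -0.09 and not called.

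Cacng1 (ENSMUSG00000020722, chromosome 11, 107703218 to 107716522), which encodes the gamma subunit that limits current through the channel, had the smallest fold change of the 10 genes in both models. It was at 114, 91.1 and 136 CPM in controls, 107, 86.7 and 129 CPM in FLExD/+ mice, 95.5, 76.3 and 99.1 CPM in moderate mice and 35.7, 40.3 and 44.3 CPM in severe mice. The moderate mice overlapped with the single-transgenic mice and the severe mice did not. Its log2 fold change was -0.33 with a 95% interval from -0.69 to 0.03 (adjusted p = 0.11) in the moderate model and -1.50 (SE 0.17, adjusted p = 2.7e-06) in the severe model. Under library size alone these changes were 0.27 and -0.20, and neither was called.

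Ryr1 (ENSMUSG00000030592, chromosome 7, 29003344 to 29125179) encodes the calcium release channel of the SR that the voltage sensor opens. It was at 3871, 2949 and 3604 CPM in controls, 2467, 2289 and 3277 CPM in FLExD/+ mice, 1178, 1347 and 1464 CPM in moderate mice and 416, 515 and 472 CPM in severe mice. A pair of FLExD/+ mice lay below the lowest control mouse and the third did not. The fitted log2 fold change was -1.39 (SE 0.17, adjusted p = 1.0e-05) in moderate mice and -2.89 (SE 0.18, adjusted p = 4.2e-09) in severe mice.

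The genes of the triad junction fell unevenly. Trdn (ENSMUSG00000019787, chromosome 10, 33080554 to 33476709) encodes triadin, which links Ryr1 to calsequestrin, and was at 1245 to 1516 CPM in controls, 1206 to 1389 CPM in FLExD/+ mice, 535 to 682 CPM in moderate mice and 135 to 247 CPM in severe mice. Its log2 fold changes against controls were -1.26 (SE 0.19, adjusted p = 8.2e-05) and -2.80 (SE 0.20, adjusted p = 2.2e-08). Jph1 (ENSMUSG00000042686, chromosome 1, 16964560 to 17097889) encodes junctophilin 1, the main junctophilin of skeletal muscle, and was at 287 to 361 CPM in controls, 285 to 375 CPM in FLExD/+ mice, 136 to 145 CPM in moderate mice and 43.4 to 70.5 CPM in severe mice. Its log2 fold changes were -1.24 (SE 0.16, adjusted p = 1.9e-05) and -2.47 (SE 0.17, adjusted p = 1.1e-08).

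Jph2 (ENSMUSG00000017817, chromosome 2, 163336242 to 163397993) encodes junctophilin 2, the form that heart muscle also uses, and had the largest change of the 10 genes in the moderate model. It was at 499, 451 and 577 CPM in controls, 514, 454 and 503 CPM in FLExD/+ mice, 108, 128 and 106 CPM in moderate mice and 49.8, 44.9 and 50.8 CPM in severe mice. The spread within each model was small beside the gap between them. Its log2 fold change was -2.16 (SE 0.12, adjusted p = 9.9e-09) in moderate mice and -3.39 (SE 0.13, adjusted p = 7.6e-11) in severe mice, a mean of 22.4% and 9.52% of that in controls.

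Casq1 (ENSMUSG00000007122, chromosome 1, 172209894 to 172219868) encodes calsequestrin 1, the calcium buffer inside the SR of fast fibres. It was at 2894, 2214 and 3296 CPM in controls, 2566, 2385 and 2703 CPM in FLExD/+ mice, 929, 955 and 1142 CPM in moderate mice and 135, 232 and 210 CPM in severe mice. The lowest severe value was that of mouse 1047, which also had the lowest share of counts from adult fibre genes. The fitted log2 fold change was -1.47 (SE 0.20, adjusted p = 2.6e-05) in moderate mice and -3.86 (SE 0.22, adjusted p = 1.9e-09) in severe mice.

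Atp2a1 (ENSMUSG00000030730, chromosome 7, 126445858 to 126463108) encodes SERCA1, the pump that returns calcium to the SR in fast fibres, and had the highest count of the 10 genes. It was at 25954, 19999 and 24188 CPM in controls, 19473, 18321 and 23410 CPM in FLExD/+ mice, 6884, 7618 and 8839 CPM in moderate mice and 1200.3, 2331 and 2038 CPM in severe mice. The groups of the models did not overlap with each other or with the single-transgenic mice. Its log2 fold change was -1.59 (SE 0.24, adjusted p = 5.9e-05) in moderate mice and -3.65 (SE 0.26, adjusted p = 1.4e-08) in severe mice, the latter a 12.6-fold lower level.

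Pvalb (ENSMUSG00000005716, chromosome 15, 78191114 to 78206400), which encodes parvalbumin, lost the largest part of its transcript in the severe model. It was at 7016, 4967 and 7329 CPM in controls, 5751, 4958 and 6375 CPM in FLExD/+ mice, 2169, 2190 and 2682 CPM in moderate mice and 143, 283 and 218 CPM in severe mice. The fall from the moderate to the severe model was steeper than that from the controls to the moderate model. The fitted log2 fold change was -1.46 (SE 0.23, adjusted p = 0.00011) in moderate mice and -4.91 (SE 0.27, adjusted p = 1.4e-09) in severe mice, where the mean was 3.33% of that in controls. Between the models it was -3.45 (SE 0.25, adjusted p = 7.2e-07).

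**Figure D2:**
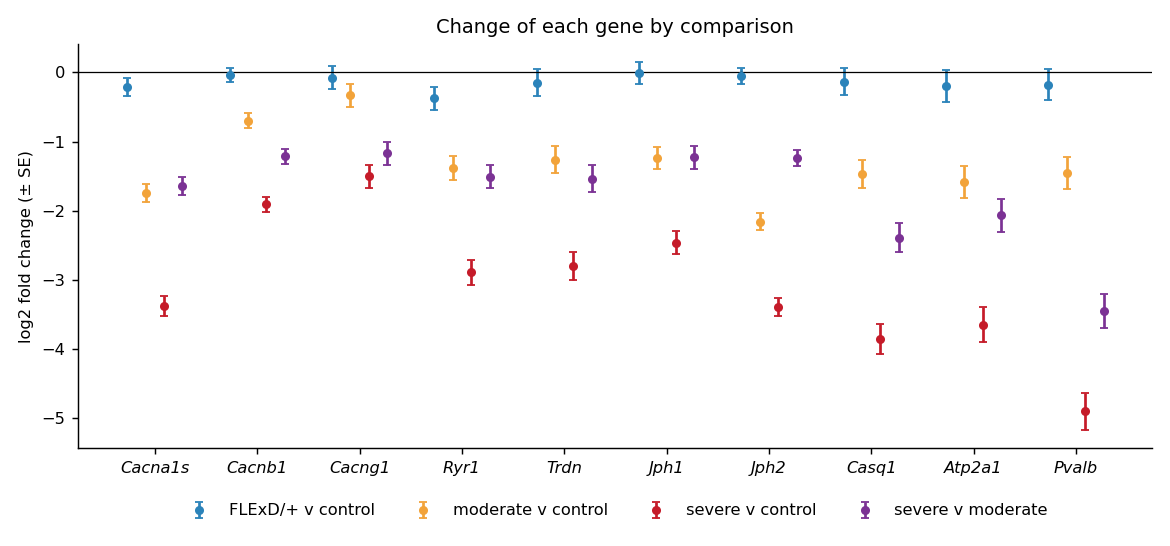
Log2 fold change of each gene in 4 comparisons, with the standard error from edgeR as bars. Pvalb fell most in the severe model, by 4.91 on the log2 scale, Jph2 had the largest change in the moderate model, at -2.16, and the changes between FLExD/+ and control mice stay between -0.38 and -0.01. With scaling to adult fibre genes 3 changes in moderate mice and 5 in severe mice would be above 0.

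The change from the controls to the moderate model and the change from the moderate to the severe model were compared within the same fit, a test added after the data were seen. Over all tested genes 15.6% were called with a more negative and 6.06% with a more positive second change. Pvalb was called with a more negative second change, by -2.0 on the log2 scale (SE 0.38, adjusted p = 0.0019). Jph2 went the other way and changed more in the first step than in the second, by 0.92 (SE 0.21, adjusted p = 0.0051). Both calls held in each of the 21 alternatives fitted, although with a log2 threshold of 1 in place of 0.5 Jph2 would not be called. Cacng1 was called with a more negative second change, by -0.84 (SE 0.28, adjusted p = 0.048), and this call was lost in 14 of the 21 alternatives, with adjusted p up to 0.57. For Casq1 the difference was -0.92 (adjusted p = 0.063) and for Cacnb1 -0.52 (adjusted p = 0.06), and neither was called, although Casq1 was called in 5 and Cacnb1 in 2 of the 21 alternatives. The other 5 genes had differences between -0.48 and 0.10 with adjusted p of 0.42 or more.

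The scaling between libraries bears on all these changes. With library size alone the median log2 fold change over all tested genes rose to 0.65 in moderate mice and 1.39 in severe mice. On that scale the fold changes of the 10 genes in the severe model were negative, with Cacng1 at -0.20 not called, and in the moderate model that of Cacng1 was 0.27. With libraries scaled to the 20 adult fibre genes described below, 2 of the 10 genes were called lower and 2 higher for moderate mice, and 3 lower and 3 higher for severe mice. Of all 18045 genes tested on that scale, 1.16% were called lower and 78.9% higher for moderate mice, and 0.837% lower and 96.0% higher for severe mice. Ratios of genes within a library, and levels relative to other fibre genes, do not depend on the scaling and are given next.

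Per length of transcript, in TPM, Pvalb was the most abundant of the 10 genes in controls, with a mean of 11074 TPM, followed by Atp2a1 at 6110 TPM and Casq1 at 1479 TPM. In the severe model Atp2a1 was at 1120 TPM and Pvalb at 853 TPM, and the ranges of these neighbours over the mice overlapped, at 757 to 1487 TPM and 590 to 1185 TPM. Ryr1 and Cacna1s, the release channel and its sensor, overlapped in controls at 202 and 194 TPM. In the severe model Ryr1 was at 63.7 TPM, from 57.8 to 73.9 TPM, and Cacna1s at 43.0 TPM, from 38.7 to 47.1 TPM. Jph1 and Jph2 overlapped in controls at 130 and 125 TPM and were apart in the moderate model, at 77.1 and 39.8 TPM. Cacng1 was the ninth of the 10 genes in controls, at 110 TPM, where it overlapped with Jph1 and Jph2, and the fifth in both models, at 122 TPM in moderate mice, where it overlapped with Ryr1, and 89.4 TPM in severe mice, where it did not. The order of the first 4 genes, Pvalb, Atp2a1, Casq1 and Trdn, was the same in controls, FLExD/+ mice and the moderate model.

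The ratios of Ryr1, Casq1, Atp2a1 and Cacna1s to a related gene were lower in the models. By the test of shares described below, 92.9% of 12954 genes were higher relative to adult fibre genes in the models. A lower ratio of a fibre gene to another gene is therefore common here. No share over all pairs of genes was computed, so the tests do not show a shift particular to these pairs. For 10 pairs of genes, the log2 ratio of counts, with 1 added to each, was compared between the 6 single-transgenic and the 6 model mice by a two-sided exact permutation test, where the smallest p is 0.00216, and p-values were adjusted over the 10 pairs. With 3 mice against 3 the smallest p is 0.10, so single groups could not reach the threshold. The ratio differed for 9 of the 10 pairs at an adjusted p under 0.05, with the TPM values and without any 1 mouse as well.

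Ryr3 encodes a ryanodine receptor of immature muscle. In TPM the ratio of Ryr1 to Ryr3 was 578, 564 and 361 in controls, 303, 300 and 556 in FLExD/+ mice, 129, 204 and 242 in moderate mice and 25.1, 41.3 and 30.4 in severe mice. The log2 count ratio was 3.28 lower in the 6 model mice (exact p = 0.00216, adjusted p = 0.00309). Ryr3 itself was at 1.06 to 2.89 CPM in controls and 5.28 to 8.81 CPM in the severe model, and its log2 fold change was 1.93 (SE 0.31, adjusted p = 6.7e-05) in the severe and 0.55 (adjusted p = 0.17) in the moderate model.

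Casq2 encodes the calsequestrin of heart and slow fibres. In TPM the ratio of Casq1 to Casq2 was 130, 41.6 and 154 in controls and 45.3, 47.2 and 165 in FLExD/+ mice, and it was 20.3, 25.8 and 34.5 in moderate mice and 1.5, 3.81 and 2.10 in severe mice. Both single-transgenic groups were split, with control mouse 1246 and FLExD/+ mice 1358 and 1367 at 41.6 to 47.2 and the other 3 mice at 130 or more. The log2 count ratio was 3.43 lower in the model mice, without overlap (exact p = 0.00216, adjusted p = 0.00309). Casq2 was at 26.7, 68.7 and 26.5 CPM in controls, at 43.5 to 59.6 CPM in moderate mice and at 80.9 to 130 CPM in severe mice, and was called in the severe model only, with a log2 fold change of 1.43 (SE 0.50, adjusted p = 0.027).

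The ratio of Atp2a1 to Atp2a2, the pump of slow fibres and of cells outside muscle, showed the same split of the single-transgenic mice. It was 131, 50.5 and 281 in controls, 48.7, 47.3 and 200 in FLExD/+ mice, 37.8, 35.3 and 55.8 in moderate mice and 6.14, 13.3 and 10.1 in severe mice, in TPM. The moderate mice overlapped with the single-transgenic mice, and the log2 count ratio was 2.31 lower in the model mice (exact p = 0.00866, adjusted p = 0.00962). Atp2a2 was at 103 to 467 CPM in controls, 187 to 261 CPM in moderate mice and 212 to 240 CPM in severe mice and was not called in either. The summed level of 8 slow fibre genes moved with this split, at 2415 CPM in control mouse 1246, 2735 CPM and 2450 CPM in FLExD/+ mice 1358 and 1367, 441 to 1146 CPM in the other 3 single-transgenic mice, and 246 to 655 CPM in the 6 model mice. Its part in these ratios was not tested.

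Cacna1c encodes the L-type channel of heart and smooth muscle. The log2 count ratio of Cacna1s to Cacna1c was 8.78 ± 0.50 (SD, n = 3) in controls, 8.67 ± 0.35 in FLExD/+ mice, 7.24 ± 0.22 in moderate mice and 5.45 ± 0.53 in severe mice, 2.38 lower in the model mice (exact p = 0.00216, adjusted p = 0.00309). Cacna1c stayed between 2.08 and 3.76 CPM in the 12 mice and was not called in either model.

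Within the voltage sensor and the triad, ratios between members moved as well. In TPM the ratio of Cacng1 to Cacna1s was 0.542, 0.496 and 0.657 in controls, 0.615, 0.551 and 0.692 in FLExD/+ mice, 1.75, 1.22 and 1.60 in moderate mice and 2.16, 2.02 and 2.07 in severe mice. The groups did not overlap apart from controls and FLExD/+ mice, and the log2 count ratio was 1.59 higher in the model mice. The ratio of Cacnb1 to Cacna1s was 1.18 higher and that of Ryr1 to Cacna1s 0.52 higher on the log2 scale, both without overlap (exact p = 0.00216, adjusted p = 0.00309 for each of the 3).

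Jph1 to Jph2 was near 1 in TPM in the single-transgenic mice, at 0.973 to 1.18, and was 1.98, 1.79 and 2.08 in moderate mice and 1.39, 2.29 and 2.23 in severe mice. The log2 count ratio was 0.90 higher in the model mice (exact p = 0.00216, adjusted p = 0.00309), and the models overlapped, with a difference between them of -0.03. Trdn to Casq1 was 0.63 higher (exact p = 0.00433, adjusted p = 0.00541), and was highest in the severe model, at a log2 count ratio of 0.07 ± 0.15 (SD, n = 3) against -0.78 ± 0.05 in the moderate model and -0.98 ± 0.17 in controls. For this pair the moderate mice overlapped with the controls, and the severe mice did not.

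Pvalb to Atp2a1 was the pair that did not pass the test (exact p = 0.175, adjusted p = 0.175), and here the models differed from each other. In TPM it was 1.78, 1.63 and 1.99 in controls, 1.94, 1.78 and 1.79 in FLExD/+ mice, 2.07, 1.89 and 2.0 in moderate mice and 0.780, 0.797 and 0.702 in severe mice. The moderate mice overlapped with the controls, and the severe mice lay below the other 3 groups, with a difference from the moderate model of -1.39 in the log2 count ratio (exact p = 0.10, the smallest possible).

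**Figure D3:**
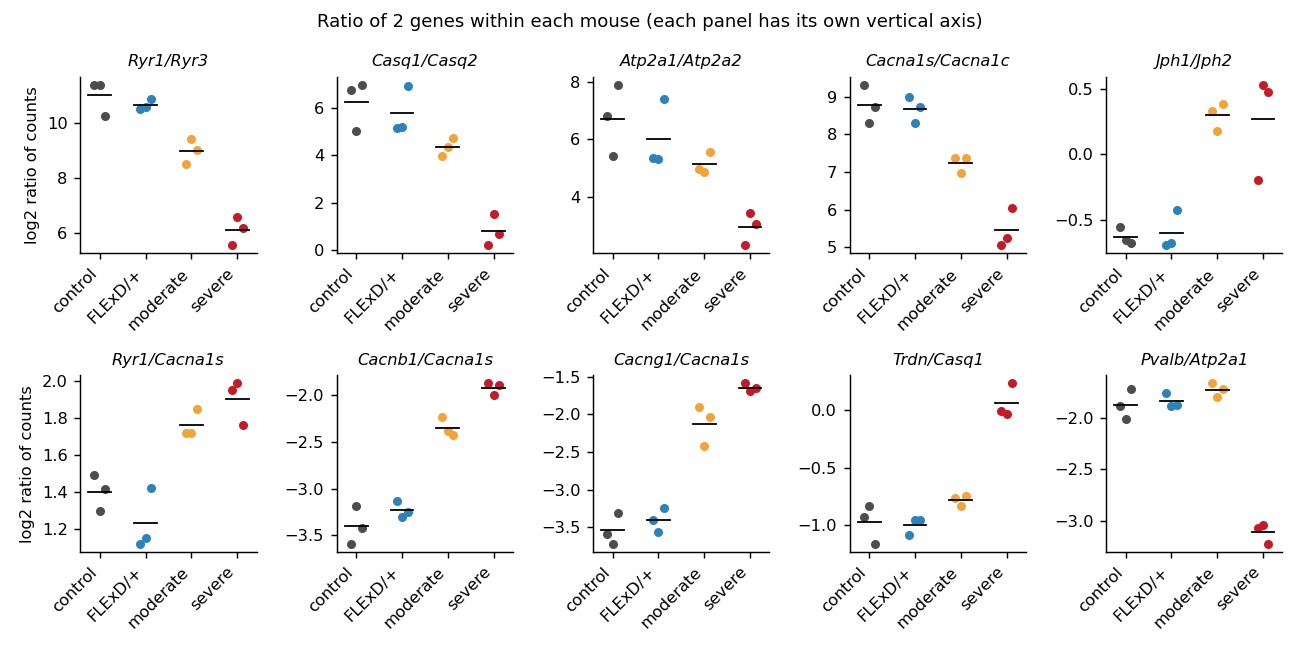
Log2 ratio of expected counts of 2 genes in each mouse for the 10 pairs, by group. Points are mice, 3 per group, black bars are group means, and each panel has its own vertical axis. Ratios of adult isoforms to their relatives fall from the single-transgenic mice to the severe model, Jph1/Jph2 is about as high in the moderate as in the severe model, and Pvalb/Atp2a1 is low in the severe model.

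To see how the 10 genes moved beside other genes of the adult fibre, each count was divided by the summed counts of 20 adult fibre genes in the same mouse, such as Acta1, Ckm, Myh4 and Ttn. These 20 genes were called lower in 17 cases in moderate mice and in 20 of 20 in severe mice, with median log2 fold changes of -1.41 and -3.41, close to the -1.42 and -3.14 of the 10 genes. Relative to them, 7 of the 10 genes differed between the 6 single-transgenic and the 6 model mice at an unadjusted two-sided exact permutation p under 0.05, among 10 tests, 5 lower and 2 higher. By the same test, 1.2% of the 12954 genes with at least 10 counts in every mouse had a lower share in the models and 92.9% a higher one.

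Cacng1 and Cacnb1 were higher relative to the fibre genes, by 1.2 and 0.78 on the log2 scale, without overlap (exact p = 0.00216 for both). A higher share was the common direction, found for 92.9% of the 12954 genes. For Cacng1 the log2 share was -11.60 ± 0.08 (SD, n = 3) in controls, -11.52 ± 0.11 in FLExD/+ mice, -10.69 ± 0.29 in moderate mice and -10.04 ± 0.22 in severe mice. The share of both subunits was higher in the severe than in the moderate model as well, without overlap.

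Pvalb was 1.05 lower relative to the fibre genes (exact p = 0.00433), at a log2 share of -5.78 ± 0.10 (SD, n = 3) in controls, -5.98 ± 0.16 in moderate mice and -7.67 ± 0.19 in severe mice. The share of Pvalb in moderate mice overlapped with controls, and that in severe mice did not. Casq1 was 0.55 lower and Atp2a1 0.48 lower, both without overlap (exact p = 0.00216 for both). Jph2 was 0.68 lower (exact p = 0.00866), with the moderate model at -10.35 ± 0.16 below the severe model at -9.76 ± 0.39 and controls at -9.43 ± 0.08. For Jph2 the severe mice overlapped with the controls, and the moderate mice did not. Cacna1s was 0.39 lower (exact p = 0.00216).

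The results for Jph2 and Cacna1s depended on the reference. With 8 fast sarcomere genes as reference they differed by -0.43 (exact p = 0.173) and -0.14 (exact p = 0.446), and with TPM values by -0.43 (exact p = 0.0844) and -0.14 (exact p = 0.238). Those for Cacng1, Cacnb1, Casq1, Atp2a1 and Pvalb kept their direction and an exact p under 0.05 with that reference and with TPM values. Leaving out control mouse 1127 brought the exact p of Pvalb to 0.0519. Ryr1, Trdn and Jph1 differed by 0.12 (exact p = 0.292), 0.08 (exact p = 0.431) and 0.21 (exact p = 0.156). With TPM values these 3 were 0.38, 0.53 and 0.46 higher (exact p = 0.0433, 0.00216 and 0.0368).

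**Figure D4:**
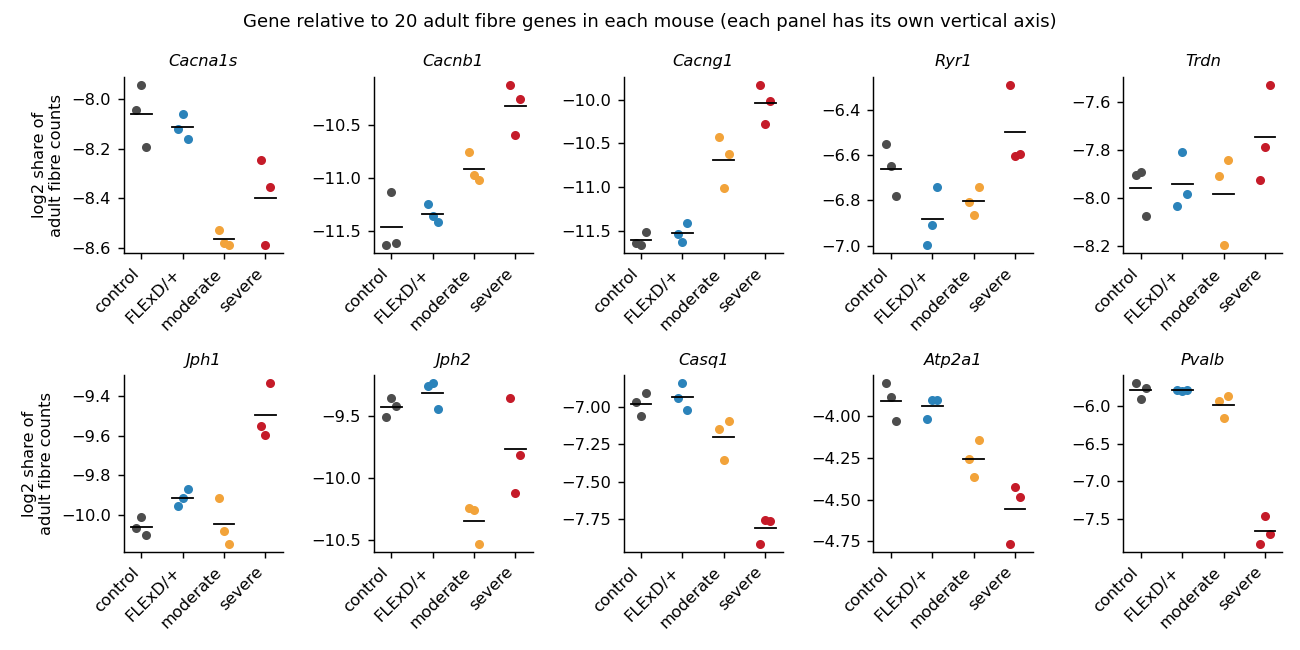
Log2 share of each gene's counts in the summed counts of 20 adult fibre genes, in each mouse and by group. Points are mice, 3 per group, black bars are group means, and each panel has its own vertical axis. The shares of Cacng1 and Cacnb1 rise, as did those of 92.9% of 12954 genes. Casq1 and Atp2a1 are lower in the moderate and lowest in the severe mice. Pvalb is low in the severe model, and Jph2 is lowest in the moderate model.

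Other genes of calcium handling were described by 4 lists with 91 genes, of which 85 were tested. Calls numbered 22 higher and 25 lower for moderate mice, and 24 higher and 36 lower for severe mice, with median log2 fold changes of -0.04 and -0.22. On this TMM scale 24.4% of all tested genes were called higher and 17.0% lower in moderate mice, against 32.9% and 27.9% in severe mice. Between the models 10 were called higher and 33 lower, beside 17.6% higher and 18.8% lower of all tested genes. Between FLExD/+ and control mice 0 were called by edgeR, DESeq2 or limma, and 3 had an unadjusted edgeR p under 0.05, as had 638 of all 16679 tested genes. The split between higher and lower depended on the scaling, since with library size alone it was 42 higher and 12 lower in moderate mice and 52 higher and 16 lower in severe mice. On that scale 52.5% of all tested genes were called higher and 4.51% lower in moderate mice, and 75.4% higher and 6.42% lower in severe mice. Of the 36 genes called lower in the severe model, 25 kept a negative sign with library size alone, and all 24 called higher kept a positive one. With scaling to the 20 adult fibre genes 3 of the 36, Atp2b3, Camk2a and Homer2, kept a negative sign, as did 11 of the 25 called lower in the moderate model.

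Among 14 voltage sensor partners, 3 were called higher and 4 lower in both models. The shares of all tested genes were 24.4% higher and 17.0% lower in moderate mice and 32.9% and 27.9% in severe mice. The genes that fell included the partners of the adult sensor. Stac3, an adaptor needed for Cacna1s to couple to Ryr1, was at 128 to 165 CPM in controls, 55.2 to 58.7 CPM in moderate mice and 19.7 to 24.5 CPM in severe mice, with log2 fold changes of -1.38 (SE 0.11, adjusted p = 1.7e-07) and -2.74 (SE 0.11, adjusted p = 1.4e-10). Cacna2d1, the alpha2delta subunit, had log2 fold changes of -1.54 and -2.38, and Cacng6, another gamma subunit, of -1.32 and -2.95. Those that rose were Cacna1d, an L-type channel of neurons and endocrine cells, at 1.87 to 4.42 CPM in moderate mice and 9.14 to 13.7 CPM in severe mice against 0.351 to 0.574 CPM in controls, Rrad, a small GTPase that inhibits L-type channels, with log2 fold changes of 3.61 and 3.17, and Cacnb3, another beta subunit, with 0.94 and 1.37.

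Of 25 tested genes of the triad and junctional SR, 4 were called higher and 7 lower in moderate mice and 8 higher and 12 lower in severe mice. Among all tested genes the shares called higher and lower were 24.4% and 17.0% in moderate mice and 32.9% and 27.9% in severe mice. Hrc, a calcium-binding protein of the SR lumen, was at 610 to 648 CPM in controls, 338 to 402 CPM in moderate mice and 52.6 to 97.7 CPM in severe mice, with log2 fold changes of -0.73 and -2.94. Homer2, a scaffold protein, had -1.63 and -3.72, and Speg, a kinase of the triad, -1.27 and -2.59. In controls Homer2 was highest in mouse 1246, at 55.4 CPM, the control mouse with the highest level of slow fibre genes, and the moderate mouse with the highest level of these genes, 1308, was also the highest for Homer2, at 21.3 CPM. The part of slow fibres in the change of Homer2 was not tested. The 3 genes with the largest rise in the severe model were Ryr3, Casq2 and Fkbp1b, which encodes a protein that binds ryanodine receptors. Fkbp1b was at 0.749 to 0.812 CPM in the severe model and at 0.0964 to 0.19 CPM in controls, where it was near the level that 3 counts give. Ryr2, the ryanodine receptor of heart, stayed at 0.534 CPM or less in the 12 mice and was not called.

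Of 18 tested pumps, exchangers and regulators, 6 were called higher and 5 lower in moderate mice and 6 higher and 7 lower in severe mice. All tested genes had shares of 24.4% higher and 17.0% lower in moderate mice and 32.9% and 27.9% in severe mice. The small peptides that inhibit the SR pump moved in different directions. Sln, sarcolipin, was at 0.569 to 2.64 CPM in the 6 single-transgenic mice, at 129, 83.2 and 117 CPM in moderate mice and at 58.1, 98.8 and 109 CPM in severe mice. The lowest model mouse lay far above the highest single-transgenic mouse, with log2 fold changes of 6.21 (SE 0.44, adjusted p = 1.0e-06) and 5.90 (SE 0.43, adjusted p = 4.9e-07). Mrln, myoregulin, had log2 fold changes of -1.48 and -2.39, and Pln, phospholamban, of -0.18 (adjusted p = 0.68) and -1.36 (adjusted p = 0.0037), the latter 0.05 and not called with limma on TPM values.

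At the plasma membrane, the calcium pump Atp2b3 and the sodium-calcium exchanger Slc8a3 had log2 fold changes of -1.35 and -1.29 in moderate mice and -3.05 and -2.28 in severe mice. The pump Atp2b2 was at 1.34 to 1.5 CPM in the severe model and at 0.434 CPM or less in controls. Its expected counts in the controls were 0, 9 and 3.03, near the floor of 3 counts. Mcub, which encodes a subunit that dampens the mitochondrial calcium uniporter, was at 0.771 to 1.24 CPM in controls and 7.08 to 7.91 CPM in severe mice, and its log2 fold changes were 1.90 and 2.84.

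Of 28 tested sensors, buffers and store entry genes, 9 were called higher and 9 lower in moderate mice and 7 higher and 13 lower in severe mice. For all tested genes the shares were 24.4% higher and 17.0% lower in moderate mice and 32.9% and 27.9% in severe mice. The calmodulin kinases Camk2a and Camk2b had log2 fold changes of -1.29 and -1.41 in moderate mice and -3.24 and -2.38 in severe mice. Stim1, the sensor of the SR calcium store, and Orai1, the channel it opens, were not called in moderate mice. Against controls, severe mice had log2 fold changes of -1.31 (SE 0.11, adjusted p = 9.8e-08) and -0.60 (SE 0.10, adjusted p = 0.00013), which with library size alone were -0.02 and 0.70. Orai2, a relative of Orai1, was at 0.829 to 1.30 CPM in controls, 3.52 to 4.73 CPM in moderate mice and 8.04 to 9.60 CPM in severe mice. Rcn1 and Rcn3, calcium-binding proteins of the endoplasmic reticulum in many cell types, had log2 fold changes of 1.07 and 1.02 in moderate mice and 1.98 and 1.64 in severe mice.

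**Figure D5:**
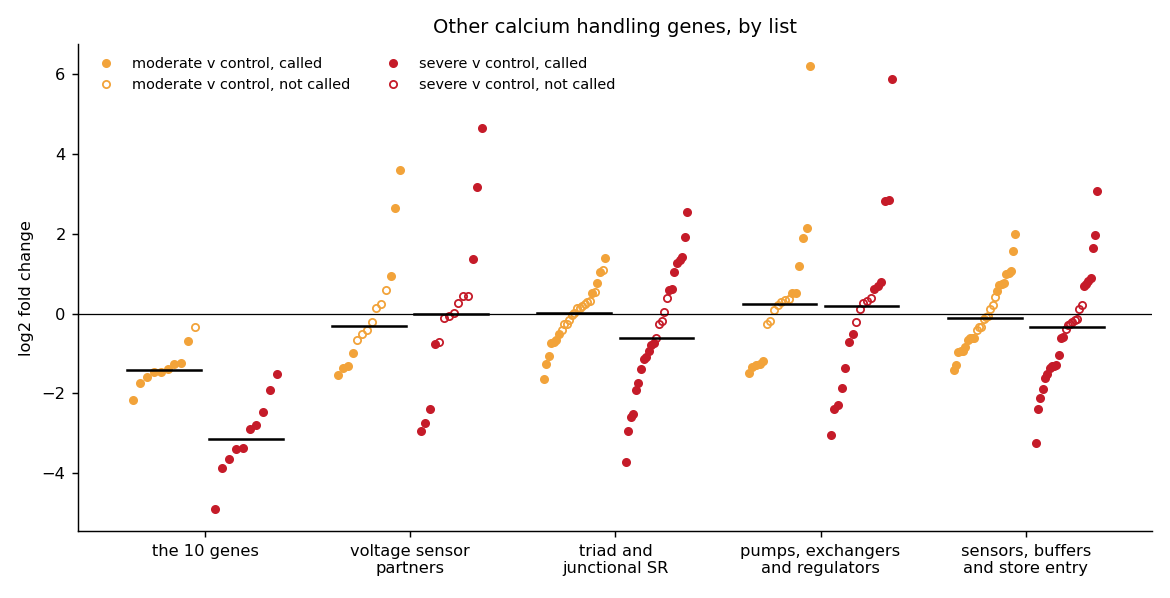
Log2 fold change of the 10 genes and of the other tested genes of calcium handling in 4 lists, in the moderate and severe models against controls. Filled points were called, open points were not, and black bars are medians. On this TMM scale the 10 genes lie below 0 in both models, and with scaling to adult fibre genes 3 and 5 of them would not, while the lists spread to both sides, from -3.72 for Homer2 to 6.21 for Sln.

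Markers of other cells moved with these changes. The summed level of 8 macrophage genes was 103 to 126 CPM in controls, 525 to 676 CPM in moderate mice and 1212 to 1320 CPM in severe mice, and 8 of the 8 were called higher in both. The sum of 8 fibroblast genes was 821 to 2303 CPM, 3333 to 3538 CPM and 5819 to 8072 CPM, with 5 and 6 of 8 called higher and 0 and 1 called lower. The sum of 8 genes of regenerating fibres was 29.4 to 31.8 CPM, 358 to 629 CPM and 1350 to 1926 CPM, with 7 and 8 of 8 called higher, and 3 and 4 of 5 satellite cell genes were called higher. Of 5 endothelial genes 3 and 5 were called lower. Among smooth muscle and pericyte genes 2 of 5 were called higher and 1 lower in moderate mice and 1 higher and 2 lower in severe mice, and 5 lymphocyte genes summed to 0.711 CPM or less in every mouse. Of 4 adipocyte genes 0 were called in moderate mice and 2 were called lower in severe mice, and the same counts held for 4 Schwann cell genes. No gene of these lists was at 0 in all control or in all severe mice. Beside these counts, 24.4% of all tested genes were called higher and 17.0% lower in moderate mice, and 32.9% and 27.9% in severe mice. The part of these cells in the changes of calcium handling genes was not tested.

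Reads could be shared with overlapping genes on the opposite strand at Atp2a1, Ryr1, Casq1, Cacnb1, Cacna1s and Jph1, since the labels do not say whether strand was kept. Of the overlapping genes with shared exon bases that the tables hold, Rabep2 at Atp2a1, Gm26604 at Ryr1, Gm17224 at Casq1 and Gm11629 at Cacnb1 had at most 0.743% of the counts of the gene they overlap in any mouse. Gm37759 shares 1309 exon bases with Cacna1s and Gm28376 shares 34 with Jph1, and they were not analysed here, like Gm44408, which shares 50 with Ryr1.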

How the data were processed

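Gastrocnemius RNA of 12 mice in 4 groups was sequenced after poly(A) selection. Per the study's methods and the labels, the authors aligned reads to mm10 with Bowtie and TopHat2 2.0.8b and made expected counts per gene with RSEM 1.2.4. They deposited these expected counts, of which 31.8% to 36.2% per mouse were not whole, and TPM values for the same genes and mice. Strandedness is not given in the sources used here.

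Expected counts were rounded and 1 model was fitted to all 4 groups with edgeR 4.0.16 in R 4.3.3 (filterByExpr, TMM, robust quasi-likelihood test, Benjamini-Hochberg adjustment over 16679 genes). Standard errors were derived from the F statistic and the fold change. Sets of 6 mice were compared by exact permutation tests. The tests of shares in adult fibre counts are given with unadjusted p-values, a departure from the plan, which had adjusted them. Alternatives used DESeq2 1.42.0, limma 3.58.1 on log2(TPM + 1) and log2(TPM + 0.1), other scalings, filters and thresholds, and fits without each mouse. The scripts were tested on simulated data.

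The 10 genes and the gene lists were chosen with earlier results of these data known. Pathway genes were named by rule, as up to 3 genes called higher and 3 called lower in either model per list, with the largest change in the severe model, plus, whatever their values, the partners in the ratios (Ryr3, Casq2, Atp2a2, Cacna1c), the muscle partners Ryr2, Cacna2d1, Stac3, Sln, Pln, Mrln, Stim1 and Orai1, and Esr1 and Wfdc3 as checks of the labels. Each replicate is 1 mouse. Positions are from GENCODE M21 (GRCm38) and start-site windows from RefSeq. A gene that the rule also names is not reported here.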

Additional observations from a re-analysis of the deposited data

How the results depend on the processing

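Without any 1 mouse, 9, 10 and 10 of the 10 genes were still called lower for moderate against control, severe against control and severe against moderate, and 9 of 10 ratios passed the test. With libraries scaled to adult fibre genes, a reference that itself falls in the models, 2, 3 and 2 genes were called lower and 2, 3 and 4 higher in those 3 comparisons, beside 1.16%, 0.837% and 0.565% lower and 78.9%, 96.0% and 92.1% higher of all genes tested. On that scale the log2 fold changes were 0.53 for Cacnb1, 0.94 for Cacng1 and 0.014 for Jph1 in the moderate model. They were 0.17 for Ryr1, 1.13 for Cacnb1, 1.57 for Cacng1, 0.22 for Trdn and 0.57 for Jph1 in the severe model. Between the models they were 0.31 for Ryr1, 0.17 for Cacna1s, 0.60 for Cacnb1, 0.64 for Cacng1, 0.24 for Trdn, 0.55 for Jph1 and 0.61 for Jph2.

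Of the 85 other calcium handling genes, library size alone gave 12 lower and 42 higher for moderate mice, 16 and 52 for severe mice and 11 and 35 between the models. Of all genes, 4.51%, 6.42% and 4.93% were then called lower and 52.5%, 75.4% and 57.8% higher. Limma on log2(TPM + 1) gave 11 lower for moderate mice, 16 lower and 41 higher for severe mice, and 11 lower and 30 higher between the models, with 4.42%, 5.92% and 3.77% of all genes lower and 31.5%, 64.1% and 48.2% higher. Of the 22 genes called higher for moderate mice on the TMM scale, 18 were called higher with this limma setting as well. The median over all tested genes moved to 0.65 and 1.39 with library size alone, to 1.28 and 3.18 with adult fibre scaling and to 0.29 and 0.79 with limma.

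The comparison of the second with the first step, the counts without overlap and these shares of all genes were added after seeing the data. In the former, 1 gene in place of 2 was called with a more negative second change with library size alone, median-of-ratios factors, adult fibre scaling, either limma setting, at least 10 counts in every mouse, or a log2 threshold of 1, which also left 0 with a more positive one. Library size without mitochondrially encoded genes gave 4, and leaving out 1 mouse gave 1 to 3. The causes were not tested. No paired analysis was possible because no replicate number is shared between groups.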
